A study of Mus musculus with 19 samples.

Results

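ER-associated degradation (ERAD) removes misfolded proteins from the endoplasmic reticulum (ER), and 9 genes of its core machinery were followed here in the mouse dorsal hippocampus. They were taken from the table of 51789 genes by symbol, as genes of the HRD1 complex, the derlins and the EDEM family, and each symbol matched 1 row. The genes were Sel1l, Syvn1, Herpud1, Derl1, Derl2, Edem1, Edem2, Edem3 and Os9. Derl3, a further derlin, is described with the wider pathway below. RNA was sequenced from 19 libraries of C57BL/6J males aged 2 to 4 months, in 2 experiments. In experiment 1 all mice were tTA+ and all had been exposed to SOR, a condition for which the labels print the letters alone. Among these mice, 5 were tTA+/DN+, carrying the dominant-negative Nr4A transgene (called DN), and 6 were tTA+/DN- controls. In experiment 2 all mice were DN-, and 4 exposed to SOR (3 tTA+/DN- and 1 tTA-/DN-) were set against 4 kept in the homecage (2 tTA+/DN- and 2 tTA-/DN-). tTA is the tetracycline transactivator, a regulator that drives genes placed behind a tet-responsive promoter. The labels name neither the promoter that drives tTA nor the cells that express DN. Whole dissected tissue was used, so fewer cells of a type and less RNA per cell cannot be told apart in any value below.

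In ERAD, a folding-defective glycoprotein is first marked by trimming of its mannose residues, a step to which the EDEM proteins contribute. The lectin OS9 reads the trimmed glycan and hands the substrate to SEL1L, the adaptor that stabilises the membrane-embedded ubiquitin ligase HRD1 (the product of Syvn1). Derlins and HRD1 help the substrate through the membrane, HERPUD1 organises the complex, and the ATPase p97 (Vcp) pulls the ubiquitinated chain into the cytosol for the proteasome. Several of these genes are known targets of the unfolded protein response, which acts through the transcription factors ATF6 and XBP1. Its DNA elements include the ER stress response element (ERSE) and a related shorter element, ERSE-II. Neurons depend on this quality control for receptors and channels that mature in the ER.

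Promoters of the members and of the BiP gene Hspa5 were read first, for exact matches to such elements. RefSeq promoters (GRCm38.p6, 250 bases before to 50 after the start site) were found for 8 of the 9 members, all but Derl1. ERSE, which is CCAAT and CCACG with 9 bases of any kind between them, was searched on both strands and occurs in 0.119% of 32851 promoters. ERSE-II, which is ATTGG and CCACG with 1 base between them, occurs in 0.0365%. Both elements share the CCACG box, and no match overlapped another in these promoters. Of the members, Herpud1 held an ERSE-II at -52 to -42 from the start and Syvn1 an ERSE at -44 to -26. Hspa5 held an ERSE at -65 to -47. The core of the XBP1-bound element UPRE (TGACGTGG, in 0.676% of promoters) and the Nr4A-bound element NBRE (AAAGGTCA, in 1.51%) were in none of the 8 members' promoters. Of 24 other ERAD genes with a promoter entry, Txndc11, Ube2j1 and Vcp held the UPRE core and Derl3 an ERSE. These matches describe the letters in a window and not binding, and looser or more distant matches were not searched. The 150 bases before the start are shown 5′ to 3′ for the members with a match, for Hspa5 as the reference gene of the response, and for Sel1l as a member without a match, with the fixed letters of ERSE and all 11 bases of the ERSE-II match, its free middle base included, in capitals.
Herpud1 (chr8:94386279-94386428, + strand): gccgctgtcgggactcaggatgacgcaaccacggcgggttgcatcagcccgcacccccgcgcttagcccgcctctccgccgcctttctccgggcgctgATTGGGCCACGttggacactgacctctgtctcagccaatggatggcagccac
Syvn1 (chr19:6046426-6046575, + strand): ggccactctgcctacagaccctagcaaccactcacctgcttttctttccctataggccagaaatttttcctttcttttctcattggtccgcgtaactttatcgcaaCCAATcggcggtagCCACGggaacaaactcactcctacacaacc
Hspa5 (chr2:34771940-34772089, + strand): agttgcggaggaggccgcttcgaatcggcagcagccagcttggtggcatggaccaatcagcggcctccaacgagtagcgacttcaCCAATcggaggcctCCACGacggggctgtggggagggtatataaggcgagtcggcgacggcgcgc
Sel1l (chr12:91849158-91849307, - strand): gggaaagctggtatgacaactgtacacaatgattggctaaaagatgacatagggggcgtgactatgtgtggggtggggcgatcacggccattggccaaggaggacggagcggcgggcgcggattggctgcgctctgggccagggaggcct

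Levels per length were compared between members in the homecage mice of experiment 2. They are given as library-scaled counts (CPM, with library sizes adjusted by TMM) divided by the kilobases of annotated exon, with all isoforms joined, which understates genes with long rarely used exons. Os9 was highest, at 45.0 ± 2.72 CPM per kb (SD, n = 4). Derl1 followed at 33.3 ± 1.98 CPM per kb and Sel1l at 30.3 ± 1.08 CPM per kb, and the libraries of this pair overlapped (30.9 to 35.1 against 29.0 to 31.4). Herpud1 stood at 21.9 ± 1.64 CPM per kb and Edem3 at 17.8 ± 0.432 CPM per kb. The low end held Edem2 (6.22 ± 0.606 CPM per kb), Edem1 (5.25 ± 0.203), Derl2 (4.26 ± 0.245) and Syvn1 (2.98 ± 0.0845). Edem2 and Edem1 overlapped (5.44 to 6.73 against 5.08 to 5.51), as Derl1 and Sel1l did, and the libraries of the remaining neighbouring pairs in the order did not overlap. The substrate lectin and the HRD1 adaptor were thus measured well above the ligase gene itself per length of exon, and the 3 EDEM genes differed in level, with Edem3 the highest of them. With 419 to 977 counts per homecage library, Syvn1 had the fewest counts and still enough for an SD of 2.83% of its mean.

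**Figure D1:**
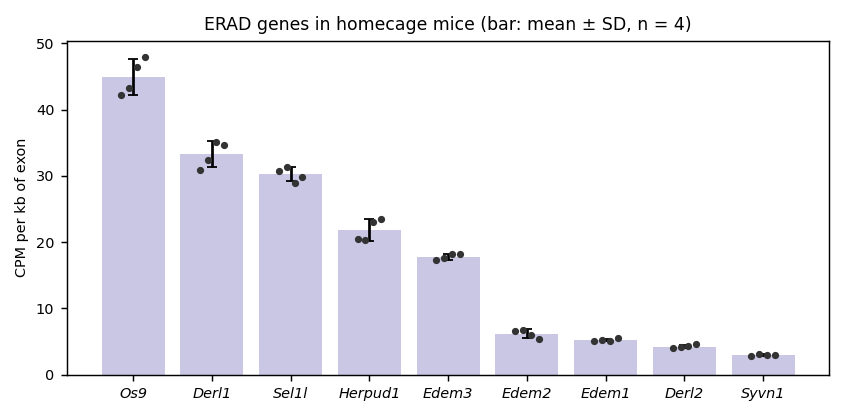
Level of each ERAD gene in the 4 homecage libraries, in CPM per kb of annotated exon (vertical axis, from 0), with genes ordered by their mean. Bars are means with SD and points are libraries; Os9 stands at 45.0 and Syvn1 at 2.98 CPM per kb.

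Herpud1 (ENSMUSG00000031770.16, chromosome 8, 94386438 to 94395377 on GRCm38, 20 annotated exons, plus strand) was the member with the widest gap between SOR and homecage. It encodes a membrane protein with a ubiquitin-like domain that binds HRD1 and is itself turned over quickly. After SOR, replicates 1 to 4 were at 79.9, 72.6, 72.0 and 68.4 CPM. Homecage replicates 1 to 4 were at 47.8, 47.7, 53.8 and 54.8 CPM. Every SOR library thus lay above every homecage library, with a gap between 54.8 and 68.4 CPM. The log2 fold change was 0.52 (SE 0.0866, 95% interval 0.33 to 0.71), and the adjusted p of edgeR's quasi-likelihood test over 22305 genes was 0.0612 (7.41e-05 unadjusted). Herpud1 ranked at position 27 by p among those genes and was not called at an adjusted p under 0.05. Its side of the threshold changed with the tool: DESeq2 gave an adjusted p of 2.34e-05 and limma-voom gave 0.0567. Without SOR replicate 3, the smallest library (22258159 counts), the log2 fold change was 0.53 and the edgeR adjusted p was 0.0272. In the 5 tTA+ mice alone it was 0.38 (SE 0.118), and the edgeR adjusted p was 0.998 (0.0120 unadjusted).

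The tTA genotype of each library bears on this gap, because tTA+ mice were 3 of 4 after SOR and 2 of 4 in the homecage. The single tTA- library after SOR (replicate 1) was the highest of all at 79.9 CPM, and both tTA- homecage libraries (replicates 1 and 2) were the lowest, at 47.8 and 47.7 CPM. Within tTA+ mice the SOR libraries were at 68.4 to 72.6 CPM and the homecage libraries at 53.8 and 54.8 CPM, again with no overlap. With tTA as a covariate the log2 fold change for SOR was 0.52 with an edgeR adjusted p of 0.154. No test of a difference in the SOR effect between tTA genotypes was made, since 1 library would carry it.

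**Figure D2:**
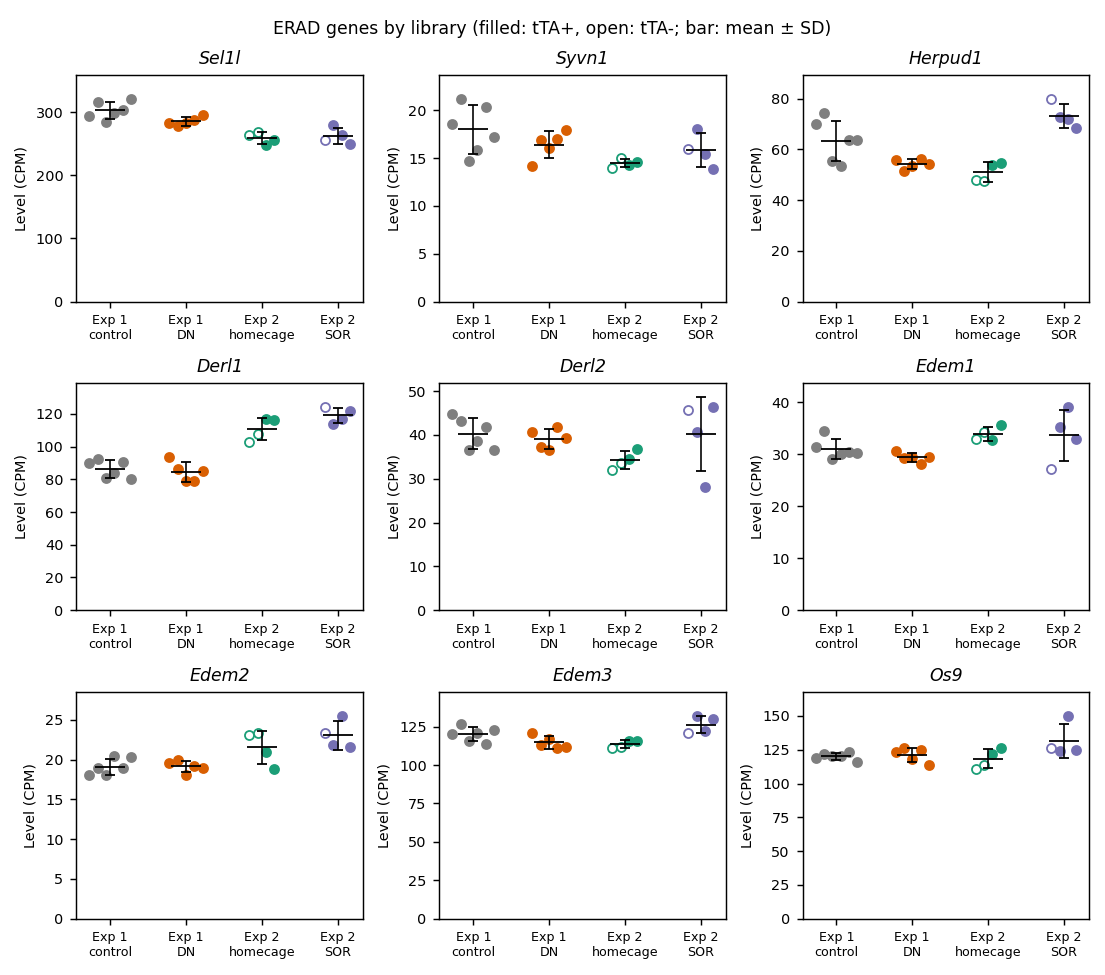
Level of each of the 9 ERAD genes in CPM (vertical axes, from 0) in each library of the 4 groups, scaled within each experiment. Filled points are tTA+ mice, open points tTA- mice, and bars mean ± SD; the SOR libraries of Herpud1 in experiment 2 lie at 68.4 to 79.9 CPM, above the homecage libraries at 47.7 to 54.8 CPM.

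Across the members, 0 of 9 were called between SOR and homecage by edgeR, beside 0.0897% of all genes tested. At an unadjusted p under 0.05 there was 1 member, Herpud1, which was higher, where 3.67% of all genes were higher at that level. In either direction, the count was 2 with DESeq2, 3 without SOR replicate 3 and 4 with all 19 libraries in 1 fit. Over all genes it was then 1775 of 22305, 1862 of 22809 and 3835 of 23716. The median log2 fold change of the members was 0.13, against 0.01 over all genes tested, and 8 of 9 were above 0, where 51.5% of all genes were. The SOR and homecage libraries did not overlap in 2 of 9 members, both higher after SOR, beside 3.06% of all genes in that direction. With DESeq2 1 member was called, again Herpud1, beside 122 of the 22305 genes tested. With limma-voom 0 members were called, beside 24 genes.

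The other members of the HRD1 complex had smaller log2 fold changes with SOR than Herpud1. Sel1l (ENSMUSG00000020964.14, chromosome 12, 91806043 to 91849157) read 256, 279, 263 and 249 CPM in the SOR libraries, in the order of their replicate numbers, while the homecage libraries read 264, 269, 248 and 256 CPM. The groups overlapped, and the log2 fold change was 0.01 with a 95% interval of -0.15 to 0.18. Syvn1 (ENSMUSG00000024807.17, chromosome 19, 6046576 to 6053712) read 16.0, 18.1, 15.4 and 13.9 CPM in SOR libraries, against 14.0, 15.0, 14.3 and 14.6 CPM for homecage. SOR replicate 4 was the lowest of the 8 libraries, while the other 3 SOR libraries lay above every homecage library. Syvn1, whose promoter holds an ERSE, had a log2 fold change of 0.13 (95% interval -0.10 to 0.35). This was 0.06 (SE 0.101) without SOR replicate 2 and 0.00 (SE 0.122) without both SOR libraries rich in choroid plexus markers. For both genes the upper bound lay below the Herpud1 estimate of 0.52. The Herpud1 interval of 0.33 to 0.71 lay above that of Sel1l but overlapped that of Syvn1. The difference between members was not tested.

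Os9 (ENSMUSG00000040462.13, chromosome 10, 127095650 to 127121131), the lectin that delivers substrates to SEL1L, read 126, 124, 150 and 125 CPM in SOR libraries, against 111, 114, 122 and 126 CPM for homecage. SOR replicate 3 stood apart from the other 3 SOR libraries, and the groups overlapped at the homecage maximum. The log2 fold change was 0.15 (SE 0.0879, edgeR adjusted p 0.675). It was 0.08 (SE 0.0678) without SOR replicate 3.

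The derlins are rhomboid-like proteins without protease activity that take part in moving substrates out of the ER. Derl1 (ENSMUSG00000022365.5, chromosome 15, 57869502 to 57892448) read 124, 114, 117 and 122 CPM in SOR libraries, against 103, 108, 117 and 116 CPM for homecage. Derl2 (ENSMUSG00000018442.13, chromosome 11, 71007164 to 71019841) read 45.6, 40.7, 28.1 and 46.3 CPM in SOR libraries, against 32.1, 33.7, 34.6 and 36.8 CPM for homecage. For Derl2, 3 SOR libraries were above all homecage libraries and SOR replicate 3 was below all of them. The log2 fold changes were 0.11 (SE 0.0769) for Derl1 and 0.23 (SE 0.140) for Derl2, with edgeR adjusted p of 0.697 and 0.676. The value for Derl1 was 0.07 (SE 0.0870) without homecage replicate 1, 0.06 under upper quartile scaling and 0.02 (SE 0.113) in tTA+ mice alone. Without SOR replicate 3 the value for Derl2 came to 0.37 (SE 0.0778), and its edgeR adjusted p to 0.145. Exons of Derl2 overlap those of Mis12 on the opposite strand over 231 bases, and those of Syvn1 overlap Mrpl49 over 91 bases; since the use of strand in counting is not given in the sources used here, some reads of these pairs may be shared. Transcripts of Derl1 share 5.56% of their 50-base words with Gm35638, and the other members share 2.27% or less with any other gene.

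The EDEM genes, whose products act on the mannose of misfolded glycoproteins, had log2 fold changes from -0.01 to 0.15 with SOR. Edem3 (ENSMUSG00000043019.12, chromosome 1, 151755371 to 151822051) read 121, 132, 122 and 130 CPM in SOR libraries, against 111, 112, 116 and 116 CPM for homecage. All SOR libraries lay above all homecage libraries, by a margin of 116 to 121 CPM, and Edem3 was the second member without overlap. Its log2 fold change was 0.15 (SE 0.0718), and the edgeR adjusted p was 0.662 (0.0632 unadjusted). Edem1 (ENSMUSG00000030104.9, chromosome 6, 108828641 to 108859356) read 27.2, 35.3, 39.0 and 32.9 CPM in SOR libraries, against 32.9, 34.3, 32.8 and 35.6 CPM for homecage. The SOR libraries of Edem1 held both the lowest and the highest value, and the log2 fold change was -0.01 (95% interval -0.25 to 0.22). Edem2 (ENSMUSG00000038312.10, chromosome 2, 155701677 to 155729475) read 23.3, 21.8, 25.5 and 21.6 CPM in SOR libraries, against 23.1, 23.3, 21.0 and 18.8 CPM for homecage, with overlap and a log2 fold change of 0.09 (95% interval -0.13 to 0.32). The Edem2 value was 0.03 (SE 0.106) without homecage replicate 4, 0.04 (SE 0.0901) without SOR replicate 3, 0.05 under upper quartile scaling and 0.20 (SE 0.147) in tTA+ mice alone.

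The regulators upstream of ERAD were measured in the same libraries, as RNA counts per gene, which do not report the activity of their proteins. Hspa5, the gene of the ER chaperone BiP, and Xbp1 rose after SOR, by 0.87 (SE 0.119, edgeR adjusted p 0.0228) and 0.70 (SE 0.0770, edgeR adjusted p 0.00879) on the log2 scale. Hspa5 was no longer called without 1 of 5 libraries, namely any homecage library or SOR replicate 1 (edgeR adjusted p of 0.0817 to 0.138), nor with tTA as a covariate (0.0632), in tTA+ mice alone (0.998) or without SOR replicates 1 and 2, which are rich in choroid plexus markers (0.288). Xbp1 was no longer called without homecage replicate 1, 2 or 3 or SOR replicate 1 (edgeR adjusted p of 0.0569 to 0.0817), nor in tTA+ mice alone (0.998) or without SOR replicates 1 and 2 (0.164). Atf6 averaged 151 ± 14.9 CPM in SOR libraries against 155 ± 23.0 CPM for homecage, a log2 fold change of -0.04 (95% interval -0.29 to 0.22). Of the 7 genes in the list of regulators, 2 were called higher and 0 lower, where 20 of all 22305 genes were called higher and 0 lower. Atf4, a factor of the integrated stress response, had 0.28 (SE 0.0990) and an unadjusted p of 0.0163 without being called (edgeR adjusted p 0.621).

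**Figure D3:**
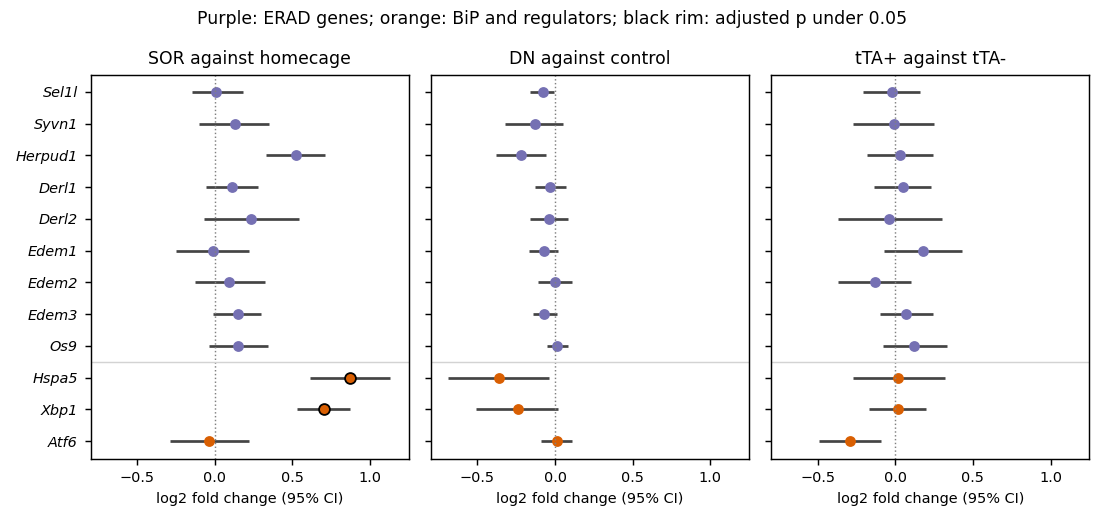
Log2 fold changes with 95% intervals (horizontal axes) of the 9 ERAD genes (purple) and of Hspa5, Xbp1 and Atf6 (orange) in the 3 comparisons; a black rim marks an adjusted p under 0.05. Only Hspa5 and Xbp1 in the SOR comparison carry a rim, and Herpud1 is the ERAD gene farthest from 0, at 0.52 with SOR and -0.22 with DN.

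The wider ERAD pathway was described with a list of 31 other genes, comprising further ligases, ubiquitin-conjugating enzymes, lectins, p97 cofactors and deubiquitinases. Between SOR and homecage 0 of 31 were called by edgeR, 23 were above 0 and 8 below, and the median log2 fold change was 0.06. Before adjustment, 4 genes of the list were higher at p under 0.05 and 0 lower, where 818 of the 22305 genes tested (3.67%) were higher and 877 lower. Ube2g2, the ubiquitin-conjugating enzyme that works with HRD1 and the ligase gp78, averaged 50.1 ± 3.38 CPM (SD, n = 4) in SOR libraries against 38.1 ± 2.23 CPM (SD, n = 4) for homecage. Its libraries did not overlap (47.0 to 53.6 against 35.1 to 40.1 CPM), and the log2 fold change was 0.39 (SE 0.0851, edgeR adjusted p 0.228). Derl3, the third derlin, whose promoter also holds an ERSE on the opposite strand at -156 to -138, averaged 2.09 ± 0.223 CPM in SOR and 1.53 ± 0.219 CPM in homecage libraries, and its log2 difference was 0.44 (SE 0.185). Selenos, a selenoprotein that ties p97 to the derlins, had 0.25 (SE 0.106), and Ubxn4, a membrane adaptor of p97, had 0.17 (SE 0.0727). Among lower genes, the smallest p belonged to the lectin gene Erlec1 (-0.22, SE 0.144), the ligase gene March6 (-0.15, SE 0.103) and Herpud2 (-0.11, SE 0.0904), none with an unadjusted p under 0.05.

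In experiment 1 the DN mice were set against controls, all after SOR, to ask whether ERAD genes differ with the dominant-negative Nr4A transgene. Nr4A function itself was not measured. Of the 9 members 0 were called by edgeR, beside 0.00893% of all 22391 genes tested. DESeq2 and limma-voom also called 0 members, beside 2 genes each. The members' median log2 fold change was -0.07, against 0.00 over all genes, with 7 of 9 below 0, where 11191 of the 22391 genes were. Without control replicate 2 that median was -0.04, with 8 of 9 below 0. The DN and control libraries overlapped in every member, while 0.299% of all genes showed no overlap. Before adjustment, Herpud1 and Sel1l were the 2 members lower at p under 0.05, where 1.81% of all genes were lower at that level. In either direction, the count was 1 without control replicate 2 and 3 without control replicate 3. Over all genes it was then 572 of 22070 and 1097 of 22032. Without control replicate 2, Sel1l had an edgeR unadjusted p of 0.0777.

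Herpud1 read 55.9, 51.5, 53.3, 56.2 and 54.4 CPM in the DN libraries, in the order of their numbers. The controls, replicates 1 to 6, ranged from 53.5 to 74.2 CPM with a median of 63.7 CPM. The DN libraries were close together, at an SD of 1.94 CPM, and lay at the low end of the controls, of which replicates 3 and 4 (55.4 and 53.5 CPM) fell among them. The log2 fold change was -0.22 (SE 0.0746), and the edgeR adjusted p was 0.999 (0.0101 unadjusted). Sel1l read 282, 278, 283, 287 and 296 CPM in the DN libraries and spanned 284 to 321 CPM in the controls, with a median of 300 CPM. Its log2 fold change was -0.08 (SE 0.0365), and the edgeR adjusted p was 0.999 (0.0303 unadjusted). Here too the DN libraries lay within or just below the range of the controls.

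Syvn1, the ligase gene, averaged 16.4 ± 1.38 CPM (SD, n = 5) in DN libraries against 18.0 ± 2.54 CPM (SD, n = 6) in controls, a log2 fold change of -0.13 with a 95% interval of -0.32 to 0.05. With 1 library left out this ranged from -0.08 (without control replicate 2) to -0.19 (without control replicate 3), in each case with an edgeR adjusted p of at least 0.930. Edem1 and Edem3 both had -0.07 (SE 0.0479 and 0.0351), Derl2 had -0.04 and Derl1 -0.03, each with an interval that includes 0. With 1 library left out they ranged from -0.09 to -0.04 (Edem1), -0.09 to -0.05 (Edem3), -0.07 to -0.01 (Derl2) and -0.07 to -0.00 (Derl1). Edem2 was at 19.2 ± 0.689 CPM with DN and 19.1 ± 1.03 CPM in controls, a log2 fold change of 0.00 (95% interval -0.11 to 0.11). Os9 was at 121 ± 4.90 CPM with DN and 120 ± 2.57 CPM in controls, a log2 fold change of 0.01 (95% interval -0.05 to 0.08). For Edem2 and Os9 the intervals leave room for changes of at most 0.11 on the log2 scale in either direction. Beside the members, Hspa5 had -0.36 (SE 0.145) and Xbp1 -0.24 (SE 0.118) with DN, neither called (edgeR adjusted p 0.999 for each), and Atf6 had 0.01 (SE 0.0487).

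Of the 31 other ERAD genes 0 were called with DN by edgeR, 22 were below 0 and 9 above, and the median log2 fold change was -0.02. Among lower genes, the smallest p belonged to Rnf185 (-0.10, SE 0.0436, unadjusted p 0.0364) and Tmub1 (-0.14, SE 0.0707), which act in ubiquitination at the ER, and Txndc11 (-0.07, SE 0.0449), a thioredoxin-like partner of EDEM proteins. The higher ones were the deubiquitinase gene Atxn3 (0.07, SE 0.0420), the mannosidase gene Man1b1 (0.05, SE 0.0370) and Faf2 (0.03, SE 0.0356), which recruits p97. At an unadjusted p under 0.05 there was 1 of 31, lower, where 406 of all 22391 genes were lower and 452 higher.

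RNA of the choroid plexus, a secretory epithelium next to the hippocampus, differed between libraries and was set beside these values. All 8 choroid plexus markers were detected in every group, and their summed level was 331 to 6518 CPM in controls of experiment 1 and 322 to 3002 CPM in DN mice. It was 355 to 3736 CPM after SOR in experiment 2 and 355 to 531 CPM in the homecage. The control libraries with the highest Herpud1 (replicates 2 and 1, at 74.2 and 69.8 CPM) had marker sums of 2434 and 6518 CPM, whereas DN replicate 2, with 3002 CPM, had the lowest Herpud1 of that experiment. Without the libraries whose sum was over 1000 CPM, the Herpud1 log2 fold change with DN was -0.10 (SE 0.0563, edgeR unadjusted p 0.0822), that of Sel1l was -0.07 (SE 0.0429), that of Hspa5 was -0.17, that of Xbp1 -0.08 (SE 0.106) and that of Syvn1 -0.06 (SE 0.0948). The members' median was then -0.03, with 6 of 9 below 0 and 0 at an unadjusted p under 0.05. In experiment 2, SOR replicates 3 and 4 had marker sums of 355 and 423 CPM, within the homecage range, and their Herpud1 levels of 72.0 and 68.4 CPM were above every homecage library. Without SOR replicates 1 and 2 the log2 fold change with SOR was 0.46 (SE 0.109, edgeR unadjusted p 0.00190, adjusted p 0.333). That fit set SOR replicates 3 and 4, both tTA+, against 2 tTA+ and 2 tTA- homecage libraries with no term for tTA. The part of choroid plexus RNA in the differences with DN and with SOR was not tested.

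**Figure D4:**
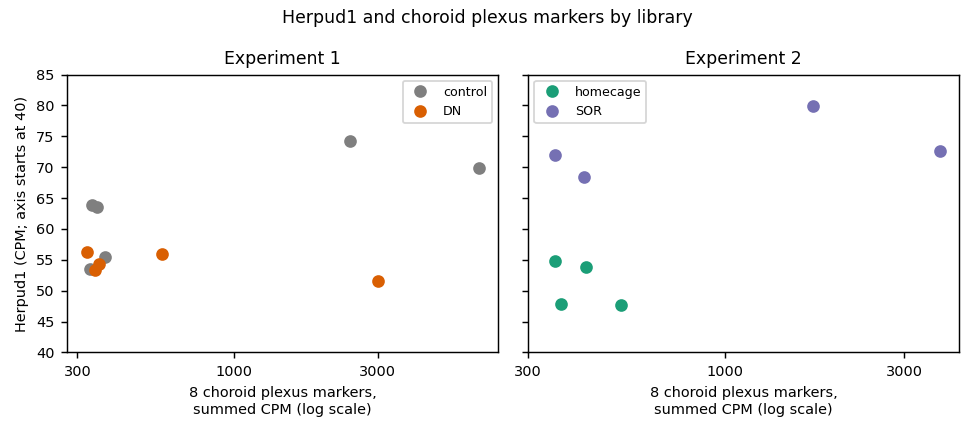
Herpud1 level in CPM (vertical axis, starting at 40) against the summed CPM of 8 choroid plexus markers (horizontal axis, log scale), 1 point per library, by experiment. In experiment 2 the SOR libraries at 355 and 423 CPM of markers stand above all homecage libraries; in experiment 1 the controls at 2434 and 6518 CPM of markers have the highest Herpud1.

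Other marker sums varied less than that of the choroid plexus. Neuronal markers of the hippocampus (7 genes, among them Slc17a7 and Prox1) summed to 3955 to 5197 CPM over the 19 libraries. In controls of experiment 1, Snap25 averaged 1903 CPM and Camk2a 1573 CPM, against 92.7 CPM for Prox1. The sum thus mostly follows genes other than Prox1, and whether it sets the hippocampus apart from other neuronal tissue was not tested. Within that list Prox1, a marker of dentate granule cells, averaged 74.4 ± 23.1 CPM in SOR libraries against 94.8 ± 30.4 CPM for homecage, with overlap (log2 fold change -0.35, SE 0.250), and its part in the ERAD values was not tested. Oligodendrocyte markers (8 genes) were all above 0 in log2 fold change after SOR, with a median of 0.18, at 6631 to 7731 CPM after SOR and 6001 to 7170 CPM in the homecage. With DN, 7 of 8 were below 0 (median -0.04), among them Mbp and Cldn11 (each -0.11, SE 0.0424 and 0.0484) at an unadjusted p under 0.05. Of 5 astrocyte markers, Aqp4 (-0.10, SE 0.0403) and Gja1 (-0.08, SE 0.0394) were lower with DN at that level, while Aldh1l1 (0.09) and Slc1a3 (0.05) were above 0 and Gfap was at -0.07. All 5 blood markers were above 0 with DN (median 0.20), none at that level. Their sums were 40.5 to 110 CPM in DN mice and 36.9 to 74.3 CPM in controls. With SOR, the blood, astrocyte, microglia, endothelium and thalamus lists held 4 genes at that level. Hbb-bt (0.53), Aldh1l1 (0.41) and Tmem119 (0.32) were higher and Tek (-0.23) lower. The part of these markers in the ERAD values was not tested. No marker list had a gene without counts in a whole group. Library totals ran from 22258159 to 66991576 counts.

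The tTA genotype was compared within experiment 2, with exposure in the model (5 tTA+ against 3 tTA- libraries). Of the 9 members 0 were called by edgeR, beside 0.358% of all 22904 genes. DESeq2 and limma-voom also called 0 members, beside 253 and 98 genes. At an unadjusted p under 0.05 there were 0 members, beside 5.71% of all genes. The log2 fold changes ran from -0.13 for Edem2 (95% interval -0.37 to 0.10) to 0.18 for Edem1 (95% interval -0.07 to 0.43), with a median of 0.03. Both ends moved when single libraries were left out: without SOR replicate 1, Edem1 was 0.02 (SE 0.128) and Edem2 -0.22 (SE 0.138), and without homecage replicate 4 Edem2 was -0.08 (SE 0.122). The members' median ran from -0.01 to 0.06 with 1 library left out. Herpud1 had 0.03 (95% interval -0.18 to 0.24). Of the other ERAD genes, 0 of 31 were called and 0 had an unadjusted p under 0.05. Atf6 averaged lower in tTA+ mice, at 142 ± 9.93 CPM (SD, n = 5) against 172 ± 10.3 CPM (SD, n = 3), without overlap and without being called (log2 fold change -0.29, edgeR adjusted p 0.503). Over all genes, 748 of 22904 lay below without overlap. The granule cell marker Prox1 also lay below without overlap, at 68.2 ± 16.0 CPM in tTA+ and 112 ± 18.1 CPM in tTA- mice (log2 fold change -0.67, SE 0.185, edgeR adjusted p 0.350), and all 8 oligodendrocyte markers had log2 fold changes above 0 (median 0.18). The part of these cell types in the Atf6 value was not tested. Hspa5 and Xbp1 each had 0.02 (SE 0.133 and 0.0845).

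To see which genes followed each member from library to library, Pearson's r of log2 CPM was computed within each experiment over 21740 genes tested in both, and genes were ranked by the smaller of their pair of r values. These r values describe 11 and 8 libraries that share their groups, depth and scaling. The genes most like Herpud1 were Manf (r = 0.97 in experiment 1 and 0.97 in experiment 2), P4ha1 (0.95 and 0.98) and Dnajc3 (0.94 and 0.94). Manf encodes a secreted ER stress factor, P4ha1 a subunit of collagen prolyl hydroxylase in the ER, and Dnajc3 a BiP cochaperone. With group means removed, r was 0.95, 0.96 and 0.91 in experiment 1 and 0.65, 0.75 and 0.05 in experiment 2, so in experiment 2 most of the likeness to Dnajc3 lay in the difference between SOR and homecage. With group differences kept in, Herpud1 and Hspa5 had r of 0.95 and 0.91, and Herpud1 and Xbp1 0.93 and 0.97. For Hspa5 and Xbp1, r with group means removed was not computed, so the share of the group difference in these values is not known. Manf, P4ha1 and Dnajc3 were chosen for following Herpud1 over the same libraries, group differences included. Their own differences between groups are therefore given as a description with no test. With SOR the log2 fold changes were 0.65 (Manf), 0.64 (P4ha1) and 0.46 (Dnajc3), and with DN they were -0.38, -0.23 and -0.23.

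**Figure D5:**
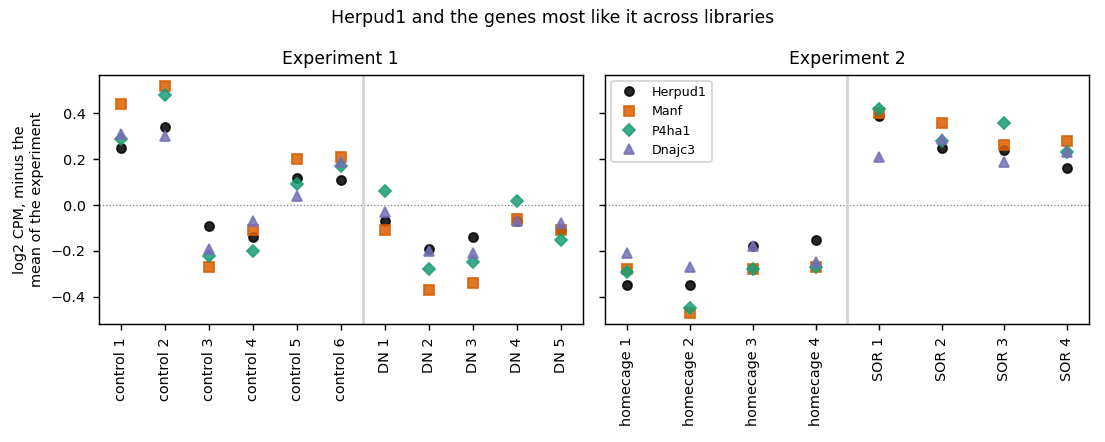
Log2 CPM of Herpud1, Manf, P4ha1 and Dnajc3 in each library, minus each gene's mean over the experiment (vertical axis), with libraries along the horizontal axis by group and replicate. Control replicates 1 and 2 of experiment 1 hold the highest values of all 4 genes there, and in experiment 2 all 4 genes are above 0 in every SOR library and below 0 in every homecage library.

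Correlations between members and with other genes are given as a description, and the same was not computed for pairs of genes outside the list. Of the 36 pairs of members, r was above 0 in 28 pairs in experiment 1 and 26 in experiment 2, with 20 above 0 in both, and the median was 0.29 and 0.21. Herpud1 with Edem3 had 0.60 and 0.80, and Herpud1 with Syvn1 0.72 and 0.56. Herpud1 with Sel1l had 0.71 in experiment 1 and 0.01 in experiment 2, and Herpud1 with Edem1 had 0.80 and -0.20. The gene most like Sel1l was Klhl29 (0.86 and 0.82), that most like Derl1 was Dnajb6 (0.86 and 0.87), and that most like Os9 was Exog (0.90 and 0.94). For Syvn1 the 3 most alike genes were Nfkb1 (0.79 and 0.84), Rcor1 (0.78 and 0.83) and the ERAD gene Txndc11 (0.78 and 0.88). For Derl2 it was Dnajc28 (0.84 and 0.87), for Edem1 Sytl5 (0.70 and 0.73), for Edem2 Tada3 (0.76 and 0.79) and for Edem3 Ctcf (0.82 and 0.84).

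Levels were last set side by side between the experiments, with all 19 libraries on 1 scale. The labels keep them as separate experiments, which differ in most of their groups but both hold tTA+/DN- mice after SOR. Of the 9 members 1 did not overlap between the experiments, beside 7.28% of all genes. This was Derl1, at 77.6 to 92.3 CPM in experiment 1 and 106 to 127 CPM in experiment 2. Within the tTA+/DN- mice after SOR (6 and 3 libraries), 4 of 9 members did not overlap, all lower in experiment 1, beside 21.2% of all genes in either direction. Derl1 spanned 78.9 to 91.2 CPM there in experiment 1 and 115 to 126 CPM in experiment 2, and the others were Edem2, Edem3 and Os9. Herpud1 spanned 50.3 to 73.0 CPM in experiment 1, where every mouse had been exposed to SOR, and 48.8 to 81.9 CPM in experiment 2.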

How the data were processed

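RNA-seq counts per gene in 19 libraries were analysed. The authors deposited raw counts as 1 table of 51789 versioned Ensembl identifiers. Per the submitters' processing notes, STAR, SAMtools 1.6, featureCounts 1.4.4 and the build mm10 were used; roles, annotation, strand and multiply mapped reads are not given in the sources used here. Per the labels' protocols, Trizol-extracted total RNA was depleted of ribosomal RNA (Ribo-Zero Gold) and made into TruSeq libraries. Symbols, positions and exons were taken from GENCODE M21 (GRCm38), which held 51596 of the identifiers by number without version; promoters came from RefSeq (GRCm38.p6). March6 is the symbol there for the gene listed as Marchf6.

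Each comparison was fitted on all genes of its experiment with edgeR 4.0.16 (TMM, filterByExpr, quasi-likelihood F test with robust dispersion, two-sided, R 4.3.3), and p-values were adjusted by Benjamini-Hochberg over every gene tested. Calls were made at an adjusted p under 0.05. SE is the absolute log2 fold change over the square root of F, and 95% intervals use the test's degrees of freedom. Log2 CPM used a prior count of 2. Alternatives, with DESeq2 1.42.0 and limma-voom (limma 3.58.1) among them, are in the closing section. The leaving out of libraries rich in choroid plexus markers was chosen after seeing the data. The members, lists, marker genes and the rule for naming genes (all members; called list genes; the 3 higher and 3 lower other ERAD genes with the smallest p for SOR and DN; Hspa5, Xbp1 and Atf6; the 3 genes most like a member) were chosen with earlier results of these data known. Ubxn4, Atf4 and the single marker genes given with values fall outside that rule and were named after their values were seen. In simulated data, 200 genes were changed by 1 on the log2 scale. Of these, 198 were recovered for DN (12 false calls among 22087 genes), 171 for SOR (10 among 21922) and 162 for tTA (10 among 22505). Only genes with enough counts were changed, and by more than the largest member estimate (0.52, Herpud1 with SOR). The simulation therefore does not tell how often changes of the members' size would be called.

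Totals were 30855629 to 47992063 counts in controls and 30882654 to 43751761 in DN mice of experiment 1, and 22258159 to 48377211 after SOR and 29271465 to 66991576 in the homecage in experiment 2. Libraries of a group differed by 4.63 to 73.4 in chi-square per degree of freedom, so none was counted as a repeat of another. The labels give no litter or day, so p-values measure the spread between these libraries.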

Additional observations from a re-analysis of the deposited data

Results flagged for a closer look

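Os9 was at 150 CPM in SOR replicate 3 of experiment 2, while the other 3 SOR libraries lay between 124 and 126 CPM. The gap to the nearest library was 0.946 of the group's whole range, above Dixon's 95% critical value for 4 libraries. This was 1 flag among 36 combinations of gene and group, and chance flags about 1 in 20. The same library had the lowest Derl2 (28.1 CPM) and the highest Edem1 (39.0 CPM) of experiment 2 and the smallest total; whether its depth bears on these values was not tested.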

How the results depend on the processing

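The count of members called with SOR was 0 with edgeR. It was 1 (Herpud1) with no filter on low counts, with DESeq2, at an adjusted p under 0.1, with all 19 libraries in 1 fit, and without SOR replicate 3, so leaving out 1 library gave 0 to 1. Herpud1 was above 0 with SOR under all 20 alternatives, from 0.38 to 0.56. No member was called with DN or by tTA under any alternative run. The count of all genes called with SOR (20) was 36 without a filter, 122 with DESeq2, 35 at an adjusted p under 0.1, 145 with all 19 libraries, 1 without libraries rich in choroid plexus markers, 11 with tTA as a covariate and 0 in tTA+ mice alone, and 1 to 50 with 1 library left out. For tTA (82) it was 265 without a filter, 253 with DESeq2 and 133 at an adjusted p under 0.1, and 10 to 290 with 1 library left out.

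Same-numbered libraries of the compared groups did not deviate together throughout (r of -0.05 to 0.21 in experiment 1 and 0.05 to 0.40 in experiment 2), so the numbers were not taken as pairs. With the replicate block, calls over all genes were 2 with DN, 9 with SOR and 0 by tTA, and 0 members were called in each. With the block the tTA effect rests on replicate number 2 alone, the only number with 1 tTA- and 1 tTA+ library, so it says nothing about stability. By tTA the block turned Sel1l to 0.06, Syvn1 to 0.20, Derl1 to -0.05, Derl2 to 0.09 and Os9 to -0.02.

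Values near 0 changed sign elsewhere, none of them called; the cause was not tested. With DN, leaving out libraries rich in choroid plexus markers gave Derl1 0.01, Derl2 0.04, Edem2 -0.03 and Atf6 -0.02. With SOR, Sel1l was -0.03 under upper quartile scaling, -0.01 with at least 10 counts in every library and -0.02 without libraries rich in choroid plexus markers. With SOR, Edem1 was 0.08 without those libraries and 0.06 in tTA+ mice alone, and Atf6 was 0.05 with tTA as a covariate and 0.10 in tTA+ mice alone. By tTA, upper quartile scaling gave -0.01 for Hspa5 and for Xbp1, and leaving exposure out gave 0.02 for Syvn1 and 0.01 for Derl2. With 1 library left out, the ranges that crossed 0 with DN were -0.01 to 0.02 (Edem2), -0.00 to 0.04 (Os9) and -0.03 to 0.04 (Atf6). With SOR they were -0.02 to 0.04 (Sel1l), -0.09 to 0.07 (Edem1) and -0.10 to 0.05 (Atf6). By tTA they were -0.06 to 0.02 (Syvn1), -0.01 to 0.19 (Herpud1), -0.10 to 0.12 (Derl2), -0.05 to 0.10 (Hspa5), -0.03 to 0.11 (Xbp1) and -0.01 to 0.06 (the members' median).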
